A study of Mus musculus with 31 samples.

Results

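The microRNAs described here lie on the Meg3 side of the imprinted Dlk1-Dio3 locus of the mouse and around the miR-127/miR-433 cluster. They were taken by name: every mature product in the deposited tables of 20 numbered microRNAs (miR-127, miR-136, miR-337, miR-341, miR-370, miR-431, miR-432, miR-433, miR-434, miR-493, miR-540, miR-665, miR-673, miR-770, miR-882, miR-1188, miR-3070, miR-3071, miR-3072 and miR-3544). The rule used no measured value and gave 39 of the 1966 mature microRNAs counted. Small RNA of the right hippocampus had been sequenced in wild type (WT) mice of the C57Bl/6 J strain and in knockouts (KO) of the serotonin transporter 5-HTT, the protein that takes serotonin back into neurons. The groups were WT given water (WT-water, n = 7), WT after exercise (n = 5), WT after corticosterone (n = 6), KO given water (n = 6), KO after exercise (n = 5) and KO after corticosterone (n = 2), with treatment lasting 4 weeks. Corticosterone is the main glucocorticoid stress hormone of rodents. The labels call the libraries biological replicates, while age, sex, the kind of exercise, the hormone's dose and the knockout allele are not stated in what was used here. The design asks how exercise and a raised stress hormone act on hippocampal small RNA, and whether the serotonin transporter matters for it.

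Dlk1, Rtl1 and Dio3 are expressed from the chromosome inherited from the father, and the long noncoding RNAs Meg3, Rian and Mirg from the chromosome inherited from the mother. Except for Mir3544 and Mir3071, whose hairpins lie on the opposite DNA strand, the microRNAs are cut from the maternal transcripts. Those of the miR-127/miR-433 group lie opposite the coding exon of Rtl1, pair perfectly with its mRNA and are known to direct its cleavage. Rtl1 derives from a retrotransposon and is best known for its role in the placenta, while the microRNAs of the locus are abundant in brain. Each hairpin can give a mature microRNA from its 5′ arm (5p) and from its 3′ arm (3p), and the seed, bases 2 to 8, guides target pairing.

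Total counts per library ran from 1011285 to 4052174, and the 39 microRNAs took 2.45% to 2.67% of them in WT-water. Libraries with the same label did not all look alike. A first axis of variation within groups, computed from 601 microRNAs outside the locus list, held 37.9% of the within-group variance. WT-water libraries scored from -10.3 to -8.21 on it, and KO-water 1, 2 and 5 from -8.78 to -7.76. KO-water 3, 4 and 6 scored 11.5, 17.1 and 15.4. Those 3 are the KO-water libraries in the authors' table of KO-water against WT-water, and the locus microRNAs took 1.09% to 1.26% of their counts against 2.3% to 2.68% in KO-water 1, 2 and 5. Exercise libraries of WT mice were split as well: WT-exercise 1 and 2 scored -8.24 and -11.4, and WT-exercise 3, 4 and 5 scored 14.0, 8.12 and 7.40. WT-corticosterone 2 scored -9.10 and the other 5 libraries of its group from -2.71 to 9.35. Summed microRNAs enriched in oligodendrocytes moved with this axis, between 5642 and 7423 CPM (a count relative to its library's TMM-scaled total) in WT-water, while KO-water 1, 2 and 5 held 4801 to 5830 CPM and KO-water 3, 4 and 6 held 1654 to 2182 CPM. After exercise and corticosterone in WT mice their medians were 2080 and 2567 CPM, against 6395 CPM in WT-water. Summed immune cell microRNAs moved the other way, with 2290 to 3281 CPM in WT-water and 6706 to 8963 CPM for KO-water 3, 4 and 6, and medians of 5825 and 4993 CPM after the treatments in WT mice. Vessel microRNAs summed to 17743 to 21822 CPM in KO-water 3, 4 and 6 and 9594 to 12426 CPM in KO-water 1, 2 and 5, and red blood cell microRNAs to 495.3 to 607 CPM and 1195 to 1568 CPM. The red blood cell list was not uniform. Its sum had a median of 901 CPM over all KO-water libraries and 1473 CPM in WT-water. Its member miR-486a-5p went the other way between these groups, at a log2 fold change of 0.91 (edgeR adjusted p = 0.072). Choroid plexus microRNAs spread widely within some groups, from 4874 to 20572 CPM in WT-water and 5298 to 26290 CPM in WT-corticosterone. They held 5736 to 18204 CPM in KO-water 1, 2 and 5 and 5266 to 6001 CPM in KO-water 3, 4 and 6. Neuronal marker microRNAs summed to between 337170 and 462010 CPM in all libraries. They held 413710 to 462010 CPM in KO-water 3, 4 and 6, 388230 to 404130 CPM in KO-water 1, 2 and 5 and 347080 to 437660 CPM in WT-water. No marker of any list was at 0. The part of these differences in the results below was not tested. A fit below holds the axis score as a covariate. It cannot settle that part, because the score also differs between the groups compared. In bulk tissue, fewer cells of a type and less RNA per cell cannot be told apart.

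All 39 microRNAs matched RefSeq's mature sequences (GRCm38.p6), and their 21 hairpins lie on chromosome 12. From the Meg3 side, Mir770 (chr12:109563692-109563785) overlaps an exon of a Meg3 transcript. Mir673, Mir493, Mir337, Mir540, Mir665 and the Mir3070 pair follow between Meg3 and Rtl1 (chr12:109571990-109588680). Mir431, Mir433, Mir127, Mir434, Mir432 and Mir136 lie opposite the Rtl1 exon (chr12:109590447-109595388). Mir341, Mir1188 and Mir370 lie in introns of Rian (chr12:109611500-109618336), and Mir3072 in an exon of Mirg (chr12:109747878-109747960). The sequences below are those of arms that are abundant or that changed in a comparison of WT mice or in KO-water 3, 4 and 6, with the seed in capitals. Opposite the Rtl1 exon these are the following.
miR-431-3p: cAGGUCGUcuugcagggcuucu
miR-433-5p: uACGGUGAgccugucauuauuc
miR-433-3p: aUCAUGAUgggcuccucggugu
miR-127-5p: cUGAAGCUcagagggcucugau
miR-127-3p: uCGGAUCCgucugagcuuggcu
miR-434-5p: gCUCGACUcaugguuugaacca
miR-434-3p: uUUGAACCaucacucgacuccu
miR-136-5p: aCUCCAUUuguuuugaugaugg
miR-136-3p: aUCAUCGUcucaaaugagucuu

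On the Meg3 side, in Rian and in Mirg the same choice gives these sequences.
miR-770-5p: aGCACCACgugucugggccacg
miR-770-3p: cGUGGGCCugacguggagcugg
miR-673-5p: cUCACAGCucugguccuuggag
miR-673-3p: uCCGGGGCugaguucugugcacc
miR-337-5p: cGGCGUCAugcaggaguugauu
miR-337-3p: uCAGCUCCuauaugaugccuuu
miR-540-5p: cAAGGGUCacccucugacucugu
miR-540-3p: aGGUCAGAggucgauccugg
miR-665-3p: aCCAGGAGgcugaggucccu
miR-341-3p: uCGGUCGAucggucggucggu
miR-370-5p: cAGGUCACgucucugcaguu
miR-370-3p: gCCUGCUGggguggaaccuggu
miR-3072-3p: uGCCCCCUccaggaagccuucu

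These microRNAs are neighbours without being a seed family. The only seed held by 2 of the 39 is GGUGCUA, of miR-3070-3p and miR-3070-2-3p, which come from the paired Mir3070 hairpins and had 84 and 48 counts in all 31 libraries together. A seed is shared with a mature microRNA outside the list by miR-673-5p (miR-6985-3p), miR-540-3p (miR-6915-5p), miR-370-5p (miR-1193-3p) and miR-882 (miR-3473a).

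The level differed between members by several orders of magnitude. MiR-434-3p was the most abundant, with a mean of 6675 CPM over the 31 libraries and rank 30 among all 1966 microRNAs. MiR-136-5p followed at 5593 CPM. MiR-127-3p, of one of the best known imprinted microRNA genes, had 1716 CPM and miR-434-5p 1017 CPM. The 13 members within Rtl1 held 87% of the summed mean CPM, the 17 on its Meg3 side 9.99% and the 9 from Rian to Mirg 3.04%. Outside Rtl1 the highest were miR-337-3p at 812 CPM, miR-665-3p at 387 CPM, miR-341-3p at 284 CPM, miR-337-5p at 268 CPM, miR-770-3p at 172 CPM, miR-770-5p at 149 CPM and miR-370-3p at 141 CPM. At Rtl1 miR-136-3p had 693 CPM, miR-433-3p 570 CPM and miR-127-5p 530 CPM. In all, 14 members reached a mean of 100 CPM.

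At the low end, 12 members had fewer than 100 counts in all libraries together. MiR-882, the only member of the list whose hairpin lies between Rian and Mirg, and miR-3071-5p had 0 counts everywhere. Hairpins on the opposite DNA strand were hardly counted: miR-3544-5p and miR-3544-3p, opposite miR-337-3p and miR-337-5p, had 2 and 3 counts against 58119 and 17791. MiR-3071-3p, opposite miR-136-5p, had 1 count against 389840. MiR-432 had 1 count in 1 library, although Mir432 lies between Mir434 and Mir136, both with abundant products. The remaining members under 100 counts were miR-665-5p, miR-341-5p, miR-1188-3p and the 3 miR-3070 products. MiR-3070-5p is made by both Mir3070 hairpins, so its 62 counts cannot be assigned to either.

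**Figure D1:**
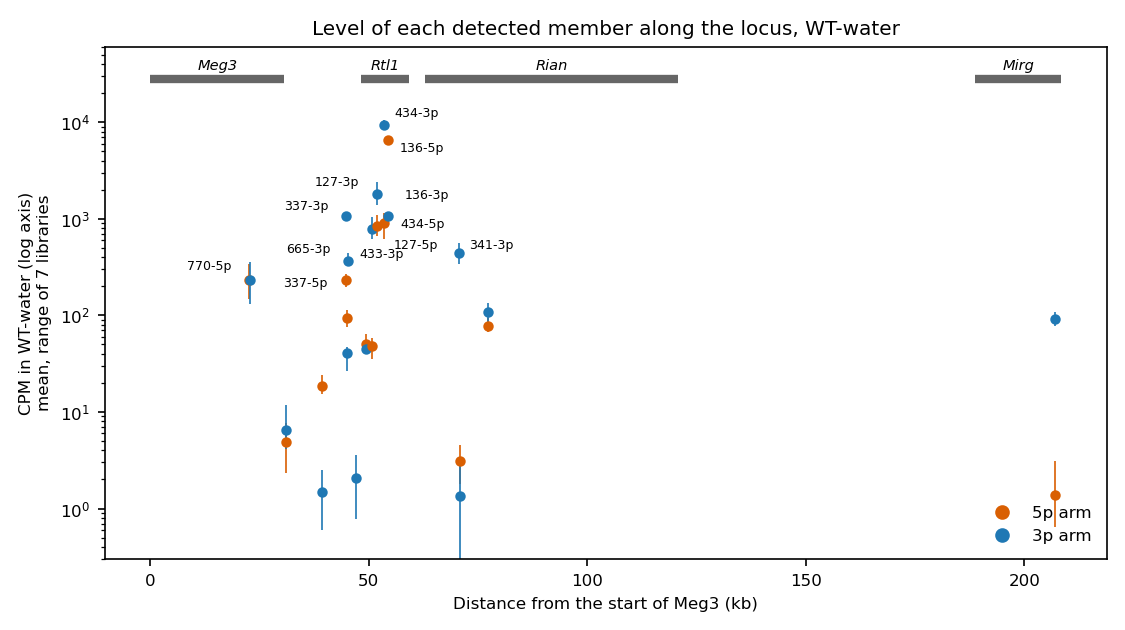
Level of each detected member in WT-water against the distance of its start from the start of Meg3 in kb, with CPM on a log axis. Points are means and bars the range of 7 libraries, orange for 5p and blue for 3p arms, and grey bars mark the annotated genes. The highest points, miR-434-3p and miR-136-5p, lie within Rtl1, members below a mean of 1 CPM over all libraries are not drawn, and a range that reaches 0 runs off the axis.

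Exercise in WT mice went with lower levels of miR-431-3p, miR-433-3p and miR-127-5p at Rtl1 and of both miR-770 arms at Meg3, and with higher levels of miR-540-3p, miR-370-3p and both miR-673 arms. Of 24 members that passed the filter on low counts, 4 were higher and 7 lower than in WT-water (edgeR quasi-likelihood test, adjusted p below 0.05), where 32.5% of all 553 tested microRNAs were called (19.9% higher, 12.7% lower). The median log2 fold change was -0.29 over the tested members and 0.04 over all tested microRNAs. With no scaling factor the latter moved to -0.07, and 1 member was called higher and 7 lower, against 78 and 85 of all 553. Of the 10 tested members within Rtl1, 0 were higher and 3 lower. On the Meg3 side 3 of 10 were higher and 2 lower, and from Rian to Mirg 1 of 4 was higher and 2 lower.

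MiR-770-5p, cut from a hairpin inside Meg3, had a lowest, median and highest level of 146, 192 and 338 CPM in WT-water. The exercised WT mice 1 to 5 had 133, 105, 123.2, 114 and 84.2 CPM. All 5 exercised libraries lay below the lowest WT-water library, and the log2 fold change was -1.02 ± 0.22 (SE, edgeR adjusted p = 0.00528).

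MiR-431-3p, whose hairpin lies opposite the Rtl1 exon, had 40.6, 43.2 and 48.7 CPM in WT-water (lowest, median, highest). It had 31.6, 25.4, 21.5, 21.0 and 26 CPM in WT-exercise 1 to 5, again with no overlap, and a log2 fold change of -0.79 ± 0.16 (edgeR adjusted p = 0.00393). MiR-433-3p, from the next hairpin along, had 624, 727 and 1039 CPM in WT-water and 489, 599, 414, 433.1 and 491 CPM after exercise. It was the only other member whose groups did not overlap, with a log2 fold change of -0.67 ± 0.15 (edgeR adjusted p = 0.00631). So 3 members, all lower, were separated completely, where 10.3% of all tested microRNAs were separated in either direction.

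MiR-127-5p, the less abundant arm of the miR-127 hairpin, overlapped between groups. It had 659, 794 and 1106 CPM in WT-water against 644, 689, 223, 311 and 325 CPM in WT-exercise 1 to 5, so WT-exercise 1 and 2 sat near or inside the WT-water range and the other 3 far below it. Its log2 fold change was -0.93 ± 0.25 (edgeR adjusted p = 0.0143), while its partner miR-127-3p was at 0.00 ± 0.17. MiR-341-3p, from an intron of Rian, followed the same split, with 340.7, 431.4 and 562 CPM in WT-water and 334, 376.2, 127.2, 153 and 175 CPM after exercise (log2 fold change -0.91 ± 0.26). MiR-770-3p was at -0.72 ± 0.24 and miR-3072-3p, of the Mirg exon, at -0.43 ± 0.15.

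Among the 4 that rose, miR-540-3p had 26.5, 44.6 and 47.5 CPM in WT-water and 46.5, 41.3, 85.8, 85.3 and 85.2 CPM in WT-exercise 1 to 5, a log2 fold change of 0.78 ± 0.23 (edgeR adjusted p = 0.0208). WT-exercise 3, 4 and 5 were far above the control range and WT-exercise 1 and 2 inside it. MiR-370-3p was at 0.61 ± 0.21, and the rare miR-673-5p and miR-673-3p, which ranged from 2.34 to 7.62 and from 4.15 to 11.9 CPM in WT-water, at 0.91 ± 0.32 and 0.81 ± 0.30. MiR-434-3p did not pass (-0.52 ± 0.32, edgeR adjusted p = 0.206), and its libraries were far apart: 8636, 9158 and 10447 CPM in WT-water against 10066, 12322, 2750, 3786 and 3340 CPM.

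With the axis score as a covariate 1 member was called after exercise, miR-431-3p at a log2 fold change of -0.66. With only the libraries whose sample code starts with G (its meaning is not stated) edgeR called 0, with 5 at an unadjusted p below 0.05, where 10 of all 575 microRNAs were called. With only the 4 libraries of letter H it called 3 members higher and 10 lower of 24, where 210 of all 554 were called. WT-exercise 1, 2 and 3 have letter G and WT-exercise 4 and 5 letter H. Member calls numbered 16 without WT-exercise 2, where 274 of all 562 microRNAs were called. They numbered 5, 4 and 4 without WT-exercise 3, 4 or 5. There 71, 66 and 66 of all 562, 561 and 561 microRNAs were higher and 42, 43 and 37 lower. Without WT-water 2, 4 or 5 they numbered 6, 7 and 7, where 147 of 552, 157 of 546 and 160 of 547 microRNAs were called. MiR-770-5p, miR-431-3p, miR-433-3p and miR-127-5p were called whichever single library was left out.

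**Figure D2:**
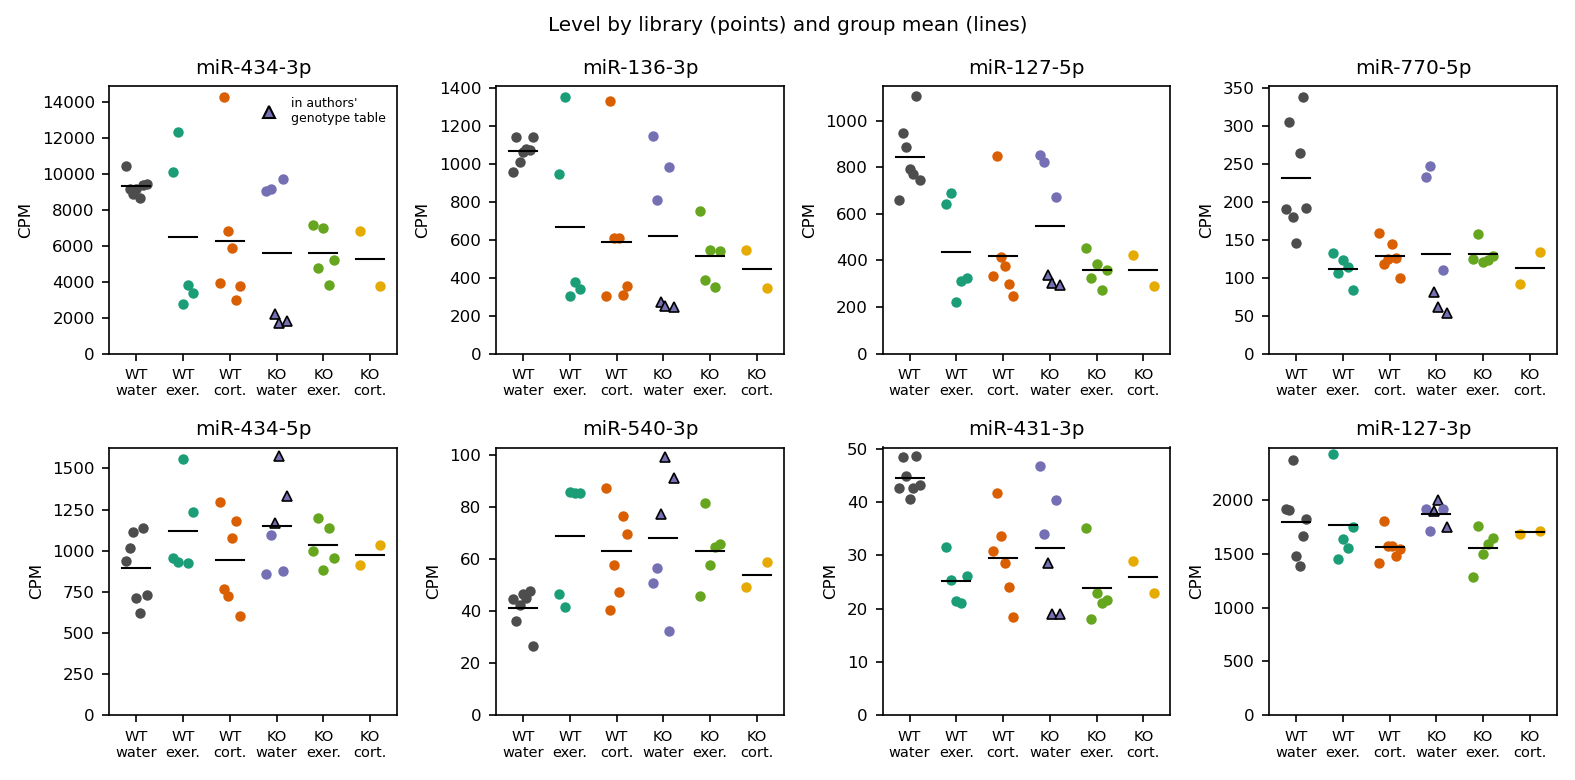
CPM of 8 members by library (points) and group mean (lines). Triangles are KO-water 3, 4 and 6, which lie at 1722 to 2197 CPM for miR-434-3p where WT-water lies at 8636 to 10447 CPM, and miR-127-3p shows no such drop.

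Corticosterone in WT mice was set against the same 7 WT-water libraries as exercise, so the pair of comparisons is not independent. It went with lower levels of arms of miR-127, miR-136, miR-431 and miR-433 at Rtl1. Of 24 tested members 3 were higher and 9 lower (edgeR, adjusted p below 0.05), where 41.9% of all 547 tested microRNAs were called (24.9% higher, 17% lower). The median log2 fold change was -0.30 over the members and 0.06 over all microRNAs tested, the latter -0.07 with no scaling factor. Within Rtl1 6 of 10 tested members were lower and 0 higher (in a joint fit of all 6 groups, 3 were called: miR-127-5p, miR-431-3p and miR-433-3p), on the Meg3 side 2 were higher and 2 lower, and from Rian to Mirg 1 was higher and 1 lower.

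MiR-341-3p had 119, 197 and 298 CPM in WT-corticosterone (lowest, median, highest) against 340.7, 431.4 and 562 CPM in WT-water. Its log2 fold change was -1.09 ± 0.19 (edgeR adjusted p = 0.000499), and it was the 1 member whose groups did not overlap, where 13.7% of all tested microRNAs were separated. MiR-770-5p had 99.6, 125 and 159 CPM against 146, 192 and 338 CPM, a log2 fold change of -0.79 ± 0.19.

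At Rtl1, miR-127-5p had 247, 356 and 851 CPM against 659, 794 and 1106 CPM, with WT-corticosterone 2 alone inside the control range. Its log2 fold change was -0.97 ± 0.22 (edgeR adjusted p = 0.00272). MiR-136-3p had 304, 482 and 1329 CPM against 958, 1073 and 1140 CPM, where the same library lay above every control and the other 5 below. Its log2 fold change was -0.83 ± 0.27, and that of its more abundant partner miR-136-5p was -0.38 ± 0.13. MiR-433-3p stood at -0.61 ± 0.16, miR-433-5p at -0.69 ± 0.22 and miR-431-3p at -0.54 ± 0.16. MiR-434-3p, at -0.54 ± 0.27 (edgeR adjusted p = 0.112), did not pass.

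The arms of miR-540, a hairpin between Meg3 and Rtl1, were called in opposite directions. MiR-540-5p had 20, 36.0 and 97.1 CPM after corticosterone against 76.2, 91.5 and 113 CPM in WT-water, a log2 fold change of -1.07 ± 0.28. MiR-540-3p had 40.3, 63.7 and 87.1 CPM against 26.5, 44.6 and 47.5 CPM, a log2 fold change of 0.68 ± 0.21. MiR-370-3p was also higher, at 0.57 ± 0.15, with 123.3, 155 and 184 CPM against 83, 107 and 134.2 CPM, as was miR-337-5p at 0.33 ± 0.12. The joint fit called 7 members in all and neither miR-540-5p nor miR-370-3p. Adding the axis score as a covariate left 0 members called by edgeR (4 at an unadjusted p below 0.05), where 36 of all 547 microRNAs were called. In that fit miR-540-3p was at -0.05 and miR-136-3p at 0.11, both on the other side of 0.

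**Figure D3:**
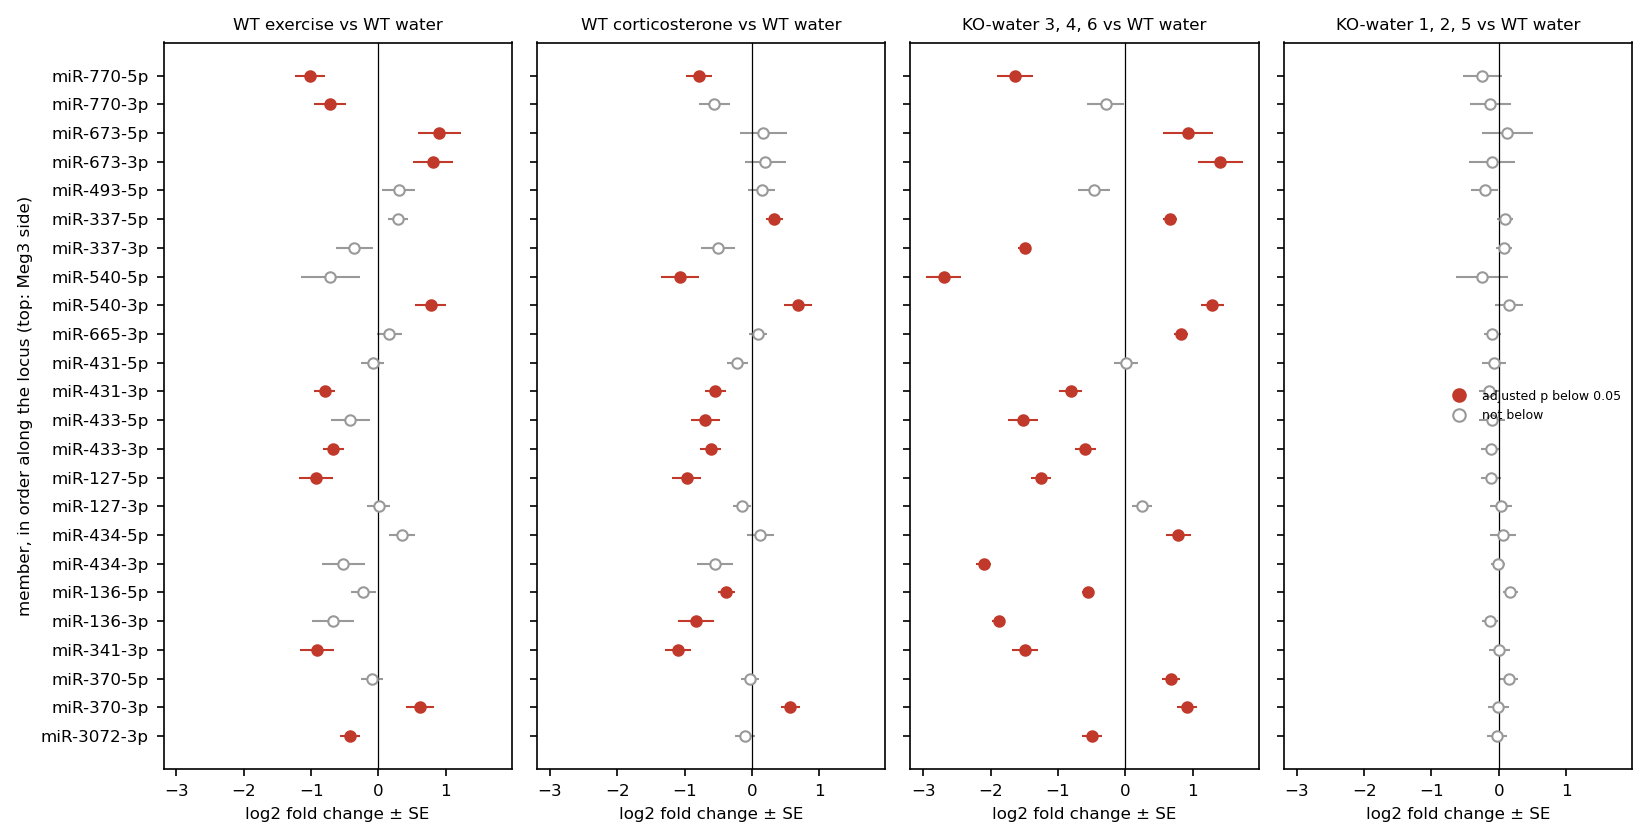
Log2 fold change ± SE (edgeR) of the 24 tested members in 4 comparisons with WT-water, in order along the locus. Filled red points have an adjusted p below 0.05: 11 after exercise, 12 after corticosterone, 20 for KO-water 3, 4 and 6, and 0 for KO-water 1, 2 and 5.

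No member passed the test between knockout and WT mice given water. Of 24 members tested over all 6 KO-water and 7 WT-water libraries, edgeR called 0, as it called 0% of all 545 tested microRNAs. At an unadjusted p below 0.05 were 9 members and 179 of all 545. DESeq2 called 3, all higher (miR-337-5p, miR-370-5p and miR-540-3p), where it called 115 of all 545. Limma-voom called 0, with 13 members and 195 of all 545 at an unadjusted p below 0.05. The median log2 fold change of all tested microRNAs was -0.08, and -0.22 with no scaling factor. Without KO-water 1, 2 or 5, in turn, edgeR called 6, 2 and 7 members. Of all 552, 553 and 552 microRNAs tested in these fits, 81, 88 and 100 were higher and 37, 20 and 61 lower. The KO-water libraries fell into separate ranges. MiR-434-3p had 9036, 9135 and 9726 CPM in KO-water 1, 2 and 5 and 2197, 1722 and 1824 CPM in KO-water 3, 4 and 6, against 8636 to 10447 CPM in WT-water. MiR-136-3p had 1148, 808 and 984 CPM against 269, 251 and 245 CPM.

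For KO-water 3, 4 and 6 alone against WT-water, edgeR called 8 members higher and 12 lower of 24, where 60.9% of all 581 tested microRNAs were called (33% higher, 27.9% lower). How the authors chose the libraries of their table is not stated, so these values describe those 3 libraries. Within Rtl1 7 of 10 were lower and 1 higher, and the member that was higher was miR-434-5p (0.78 ± 0.18), the partner of miR-434-3p (-2.10 ± 0.11). MiR-136-3p was at -1.88 ± 0.10, miR-433-5p at -1.52 ± 0.23 and miR-127-5p at -1.25 ± 0.15, with 339, 305 and 295 CPM for miR-127-5p in these libraries. MiR-127-3p (0.25 ± 0.15) and miR-431-5p (0.01 ± 0.18) did not pass. The remaining calls there were miR-431-3p (-0.81 ± 0.17), miR-433-3p (-0.59 ± 0.15) and miR-136-5p (-0.56 ± 0.09).

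On the Meg3 side 5 of 10 were higher and 3 lower. The lower ones were miR-540-5p (-2.70 ± 0.26), miR-770-5p (-1.64 ± 0.27) and miR-337-3p (-1.50 ± 0.10), with miR-540-5p at 20.3, 7.76 and 9.26 CPM against 76.2 to 113 CPM in WT-water. Their partner arms miR-540-3p (1.29 ± 0.17) and miR-337-5p (0.66 ± 0.10) were higher, and miR-770-3p (-0.29 ± 0.28) did not pass. MiR-665-3p (0.83 ± 0.11), miR-673-3p (1.41 ± 0.33) and miR-673-5p (0.93 ± 0.37) were higher too. Further along, miR-341-3p (-1.49 ± 0.19) and miR-3072-3p (-0.49 ± 0.14) were lower and both arms of miR-370 higher (3p 0.92 ± 0.15, 5p 0.68 ± 0.14).

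In KO-water 1, 2 and 5 against WT-water edgeR called 0 of 24, with 0 at an unadjusted p below 0.05. Over all 587 tested microRNAs it called 0 as well, with 24 at an unadjusted p below 0.05. MiR-434-3p was at -0.01 ± 0.11 there and miR-136-3p at -0.13 ± 0.12. The 3 libraries differed among themselves in some members: miR-540-5p had 132.2, 20.4 and 84.4 CPM, and miR-770-5p 233, 247 and 109.6 CPM.

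Treated KO mice were compared first with all 6 KO-water libraries. After exercise edgeR called 0 of 24, with 0 at an unadjusted p below 0.05, where 4.02% of all 523 tested microRNAs were called (3.06% higher, 0.956% lower). With the axis score as a covariate edgeR called 2 of 24, miR-127-5p at -0.47 ± 0.10 and miR-665-3p at -0.30 ± 0.09. In that fit 121 of all 523 microRNAs were called. DESeq2 and limma-voom called 0 members, and all members overlapped between the groups, where 6.12% of all tested microRNAs did not. After corticosterone, with 2 treated libraries, edgeR called 0 of 25, with 0 at an unadjusted p below 0.05, where 0.521% of 576 were called, and DESeq2 and limma-voom again called 0. MiR-127-3p and miR-431-5p lay lower in both corticosterone libraries than in every KO-water library (1688 and 1714 against 1716 to 2002 CPM, and 35.7 and 36.9 against 41.4 to 54.9 CPM), where 13.4% of all tested microRNAs were separated.

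In treated KO mice miR-434-3p lay between the separate ranges of KO-water. It had 7169, 4738, 6979, 3820 and 5215 CPM in KO-exercise 1 to 5 and 6782 and 3745 CPM after corticosterone. MiR-127-5p had 324, 387, 273 and 360 CPM in KO-exercise 2 to 5, more in KO-exercise 1, and 425 and 290 CPM after corticosterone. The sign of the exercise comparison turned with the KO-water libraries used. MiR-434-3p was 1.48 ± 0.21 higher on the log2 scale than KO-water 3, 4 and 6 (edgeR adjusted p = 0.000797) and at -0.73 ± 0.21 relative to KO-water 1, 2 and 5 (edgeR adjusted p = 0.0314). MiR-136-3p was at 0.95 ± 0.23 and -0.92 ± 0.24 in the same fits. MiR-127-5p was called in the second fit only, at -1.11 ± 0.19, together with miR-341-3p (-0.96 ± 0.23), miR-433-3p (-0.64 ± 0.16) and the rare miR-1188-5p (1.71 ± 0.53).

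The difference between genotypes in the response was tested itself. EdgeR called 0 of 25 members for the genotype-by-exercise term and 0 of 27 for the genotype-by-corticosterone term, with 4 and 1 at an unadjusted p below 0.05, as 0% of all 571 and 630 tested microRNAs were called. DESeq2 and limma-voom called 0 members in both. The smallest p of a member was that of miR-540-3p in each, at -0.92 ± 0.37 for exercise (edgeR adjusted p = 0.217) and -0.92 ± 0.42 for corticosterone (edgeR adjusted p = 0.464). The calls in WT mice and their absence in KO mice are thus not shown to differ. With KO-water 3, 4 and 6 as the only KO controls, 17 of 26 and 12 of 27 members were called for these terms. Over all microRNAs 252 of 596 and 213 of 626 were called in the same fits. With KO-water 1, 2 and 5 as the only KO controls 0 members were called in either, as were 0 of all 601 and 621.

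Both arms of a hairpin are cut from 1 precursor, and their ratio does not depend on library scaling. It was tested for the 10 hairpins with enough counts in both arms, by an exact two-sided permutation test with adjustment over 10 hairpins and 5 comparisons. MiR-127 passed in both WT comparisons. Its 5p arm made up 25.6%, 33.2% and 39.9% of the hairpin's counts in WT-water (lowest, median, highest) and 20.9%, 32.1%, 11.9%, 16.7% and 15.6% in WT-exercise 1 to 5. The mean log2 ratio of 5p to 3p was 1.04 below that of WT-water after exercise (a difference of -1.04, exact permutation adjusted p = 0.0451) and -0.93 after corticosterone (exact permutation adjusted p = 0.0437).

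MiR-370 passed in the same comparisons, with differences of -0.67 and -0.59 (exact permutation adjusted p = 0.0437 in each). Its 5p arm made up 34.5% to 47.5% in WT-water, 25.9% to 36.7% after exercise and 27.9% to 37.5% after corticosterone, so the ranges overlapped. MiR-136 passed after exercise (0.64, exact permutation adjusted p = 0.0491) and between the water groups of both genotypes (0.82, exact permutation adjusted p = 0.0437). MiR-337 (0.99, exact permutation adjusted p = 0.0491) and miR-540 (-1.90, exact permutation adjusted p = 0.0437) passed after corticosterone. MiR-770 passed between the water groups (-0.78, exact permutation adjusted p = 0.0437).

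Large shifts of arm lay in KO-water 3, 4 and 6. The 5p arm of miR-434 held 34.8%, 47.8% and 42.2% there, against 6.69% to 11.2% in WT-water and 8.67%, 10.7% and 8.25% in KO-water 1, 2 and 5. For miR-337 the 5p arm held 47.5%, 51.0% and 48.3%, against 15.0% to 19.8% in WT-water. The 5p arm of miR-540 went the other way, to 20.7%, 7.26% and 9.22% against 63.1% to 77.6%, and KO-water 2 stood at 26.5%. WT-exercise 3, 4 and 5 were shifted the same way, with 36.1%, 19.6% and 27.0% for miR-434 and 8.47%, 23.7% and 27.4% for miR-540, where WT-exercise 1 and 2 had 8.68% and 7.00% and then 63.2% and 76.9%. In KO mice 0 hairpins passed for exercise or corticosterone, with 0 at an unadjusted p below 0.05, and with 2 libraries against 6 there are 28 arrangements. The adjusted values lie just under 0.05, and without any single WT-water library 0 hairpins passed in the 3 comparisons that use WT-water.

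**Figure D4:**
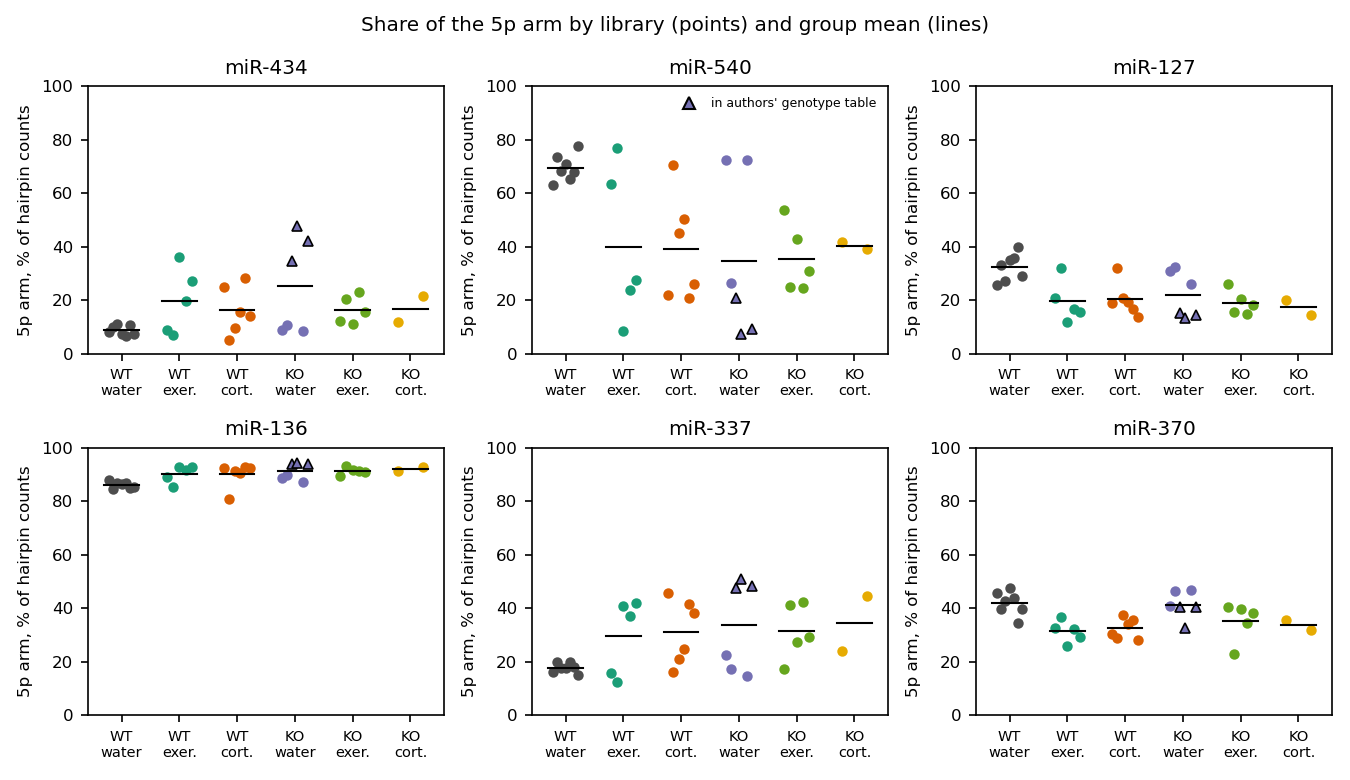
Share of the 5p arm in the counts of 6 hairpins, in percent, by library (points) and group mean (lines). Triangles are KO-water 3, 4 and 6, where miR-434 reaches 34.8% to 47.8% and miR-540 falls to 7.26% to 20.7%.

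Across the 31 libraries the members did not move as 1 block. On log2(CPM + 1), miR-434-3p followed miR-136-3p (Pearson r = 0.960, Spearman rho = 0.918) and miR-337-3p (r = 0.952, rho = 0.930), and ran against miR-540-3p (r = -0.865, rho = -0.879). Each had a permutation p of 1e-05, the smallest that 100000 permutations can give, and 1.8e-05 to 1.9e-05 after adjustment over 23 relations. Without the 2 libraries farthest from the median of miR-434-3p, r was 0.964, 0.951 and -0.837. Within code letter G (n = 20) r was 0.956, 0.944 and -0.898, and within letter H (n = 11) 0.964, 0.963 and -0.882. Over the 7 WT-water libraries alone it was -0.483, 0.697 and -0.037. CPM values of a library share its total. MiR-127-3p (r = 0.095, permutation p = 0.616) and miR-431-5p (r = 0.176, permutation p = 0.345) showed no relation to miR-434-3p that passed.

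Partner arms behaved in different ways. Over the 31 libraries the arms of miR-136 (r = 0.914), miR-770 (r = 0.724) and miR-433 (r = 0.701) rose and fell together. Those of miR-540 (r = -0.847), miR-337 (r = -0.727) and miR-434 (r = -0.597) ran against each other, each with a permutation p of at most 0.0003 and an adjusted one of at most 0.0005 over 10 hairpins. Spearman's rho had the same sign in all 6, at 0.861, 0.650, 0.708, -0.842, -0.725 and -0.571. Without the 2 farthest libraries r was 0.913, 0.584, 0.672, -0.821, -0.717 and -0.731. By code letter r was 0.898, 0.674, 0.583, -0.893, -0.689 and -0.734 in G and 0.946, 0.754, 0.875, -0.835, -0.809 and -0.405 in H. Within the 7 WT-water libraries r was -0.436, 0.975, -0.186, 0.050, -0.209 and 0.246, so that miR-136, miR-433, miR-540 and miR-434 had the other sign there. For miR-127 (r = 0.290), miR-370 (r = 0.248), miR-431 (r = 0.154) and miR-673 (r = 0.370) no adjusted permutation p was below 0.05 (0.144, 0.199, 0.405 and 0.0592).

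The last base of the members' sequences was set beside the direction in KO-water 3, 4 and 6, as a description. Of the 12 lower members 9 end in U, as miR-434-3p, miR-136-3p and miR-337-3p do, and of the 8 higher 4. Of all 24 tested members 14 end in U (58.3%), whatever their direction. Among the 500 tested microRNAs with a sequence 37.4% end in U, 49.0% of the lower and 30.7% of the higher ones. Over all of them the median log2 fold change was -0.22 for those ending in U and 0.31 for those ending in G.

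The other large cluster of the locus, miR-379/miR-410, gave counts with another balance. After exercise in WT mice 13 of its 62 tested members were higher and 3 lower, and after corticosterone 12 were higher and 15 lower, against 4 and 7, and 3 and 9, of 24 here. Its median log2 fold change was -0.11 after exercise and -0.10 after corticosterone. It took 2.14% ± 0.04 (SD, n = 3) of counts in KO-water 3, 4 and 6 and 2.74% ± 0.13 (SD, n = 7) in WT-water, while the 39 members took 1.16% ± 0.09 and 2.55% ± 0.08. The difference between the clusters was not tested.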

How the data were processed

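Libraries of right hippocampus (31 in all) were used. Per the labels and tables, the values the authors deposited are unnormalized whole counts of reads per mature microRNA, in 5 tables, each named for a pair of groups, with 55 columns. The submitters' processing notes name GRCm38 (mm10), BWA, cutadapt 2.3, featureCounts, limma 3.54.1 and Subread, without their order. Use of strand in counting is not stated. A library held by several tables had equal counts in each, and libraries were grouped by their labels. The table that sets KO-water beside WT-water holds 3 of 6 KO-water libraries and a KO-exercise library, which was kept in its labelled group. No libraries of a group agreed within sampling noise. P-values measure the spread between these libraries.

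Here each comparison was fitted on all libraries of its groups with edgeR 4.0.16 in R 4.3.3 (filterByExpr, TMM, robust glmQLFit, glmQLFTest), with Benjamini-Hochberg adjustment over all microRNAs tested. SE is the log2 fold change divided by the root of F. Counting noise is smallest for the most abundant members: the rarest tested ones had a few CPM. Arm ratios used counts plus 0.5 and needed a mean of 10 counts in each arm. The tests were checked on simulated data. Alternatives were DESeq2 1.42.0 and its size factors, no scaling, limma-voom 3.58.1, other filters, a joint fit, the sample codes' first letter (G or H) as a batch, the axis score, the replicate block, subsets of KO-water and each library left out. Members with a mean of 100 CPM, or called, or with a passing arm ratio are named. The members and lists were chosen with earlier results of these data known.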

Additional observations from a re-analysis of the deposited data

Results flagged for a closer look

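Of 155 groups of member levels and arm ratios examined, 11 held a library that stood apart from the rest of its group by more than Dixon's 95% limit, where chance gives about 1 in 20. WT-corticosterone 2 accounted for 5 of them. It had 14241 CPM of miR-434-3p where the other 5 libraries had 2998 to 6789 CPM, 1329 CPM of miR-136-3p (others 304 to 608), 851 CPM of miR-127-5p (others 247 to 416) and 97.1 CPM of miR-540-5p (others 20 to 47.9). Its log2 ratio of the miR-136 arms was 2.09, with the others from 3.24 to 3.64. KO-exercise 1 stood apart with 233 CPM of miR-337-5p (others 272 to 288) and 35.1 CPM of miR-431-3p (others 18.1 to 22.9). KO-exercise 2 had 157 CPM of miR-770-5p (others 120 to 129), and WT-exercise 2 had 107.55 CPM of miR-770-3p (others 141 to 146). WT-water 1 had 10447 CPM of miR-434-3p (others 8636 to 9409). KO-exercise 4 had a log2 ratio of the miR-673 arms of -1.67, with the others from 0.00 to 0.12.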

How the results depend on the processing

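The replicate numbers do not pair the libraries: same-numbered libraries of 2 groups had correlated deviations of -0.301 to 0.496. A replicate block can use only libraries whose number all groups hold (10 of 12 for WT exercise, 12 of 13 for WT corticosterone). With it 1 and 9 members were called there, and on the same libraries without it, a setting chosen after seeing the data, 6 and 11 (all libraries 11 and 12). For KO corticosterone these 4 libraries gave 0 member calls with the block and 1 without (22 and 26 of 550 over all microRNAs), and all other member counts stayed at 0. With the axis score as a covariate the counts were 1, 0 and 2 for WT exercise, WT corticosterone and KO exercise. Over all microRNAs 27 of 553, 36 of 547 and 121 of 523 were called in these fits. MiR-540-3p (-0.0533) and miR-136-3p (0.11) changed sign after corticosterone in WT mice. With code letter G alone 0 (5 at an unadjusted p below 0.05) and 6 members were called after WT exercise and corticosterone. Over all microRNAs 10 of 575 and 135 of 536 were called, and 0 hairpins passed for either or between water groups. A joint fit called 7 after WT corticosterone and 1 between water groups, and DESeq2 3 there. With KO-water 3, 4 and 6 as the only KO controls 10, 4, 20, 17 and 12 members were called (KO exercise, KO corticosterone, water groups, both interaction terms), and 4 and 8 hairpins passed (KO exercise, water groups). With KO-water 1, 2 and 5 the calls were 6 for KO exercise and 3 for KO corticosterone, and 0 hairpins passed between water groups. Those fits called 118 microRNAs in all for KO exercise and 40 of 565 for KO corticosterone. Leaving out 1 library gave 4 to 16 calls for WT exercise, 9 to 13 for WT corticosterone, 0 to 7 between water groups (6, 2 and 7 without KO-water 1, 2 or 5) and 0 for the rest. Passing hairpins ranged from 0 to 5, 0 to 6 and 0 to 6 in WT exercise, WT corticosterone and between water groups, 0 to 1 for KO exercise and 0 for KO corticosterone. The causes were not tested. The other settings run kept each count within 1.5 times. Letter G alone was not run for KO corticosterone, its interaction or its arms, since no such library has that letter. Depth limits the members under 100 counts, of which 0 passed the filter when all libraries of the groups were used. With no filter miR-3070-5p, with 62 counts in all, was called for WT exercise.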
